A study of Homo sapiens with 4 samples.

Results

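A 3′ end peak is here a region called as N6-methyladenosine (m6A) enriched that lies at the very end of a protein-coding gene in MDA-MB-231, an established cell line of human triple negative breast cancer. From a list of 20261 m6A peaks on 10140 genes, peaks were kept that carried the Ensembl identifier of a nuclear protein-coding gene, had 1 block, were shorter than 1000 bases and lay inside the RefSeq span of their gene. Their midpoint had to fall in the last 10% of that span and their 3′ edge within 500 bases of the annotated gene end. These steps left 1556 peaks on 1483 genes, 399 on plus (380 genes) and 1157 on minus (1103 genes).

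The list was made from 4 libraries of poly(A) RNA, 2 of input and 2 immunoprecipitated (IP) with an anti-m6A antibody, all from cells labelled shNS. The treatment field of both IP libraries reads IP-YTHDC1, whereas their titles and protocol name m6A, and the latter was followed. All 4 libraries were combined into 1 list with 1 score per peak, read as a p-value of IP over input, so that no value of a single library, no depth and no spread between replicates can be given. Smaller scores are called stronger here, although the score of a peak also depends on how much of the transcript was sequenced, and the intervals below take each peak as independent and reflect counting error alone.

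m6A is laid down on nascent mRNA by a methyltransferase complex that contains METTL3 and METTL14, mostly at adenosines in the context RRACH (R is A or G, H is any base but G). It is known for its enrichment around stop codons and in 3′UTRs, where reader proteins such as the YTHDF and YTHDC families bind it and affect the splicing, export, translation and decay of the message. The last bases of a gene lie before the site where the transcript is cleaved and polyadenylated, and they are also where a neighbouring gene on the other strand may end.

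Sequence could be read for the few 3′ end peaks that reach into the window around a gene start, mostly that of a neighbouring gene. Of the 1556 peaks, 19 shared bases with one of 35116 RefSeq windows of 300 bases around a gene start (GRCh38.p14), in 19 stretches of 2352 bases in all. Read on the strand of the peak, 13 stretches held RRACH, with 8.93 matches per 1000 bases against 11.1 in all windows read on the strand of their gene. GGACT, the most common form of that context, was found in 5 stretches, with 2.13 matches per 1000 bases against 0.991. The 5 sites are shown because they are the GGACT matches inside 3′ end peaks that could be read. The GGACT is in capitals, and each run is 5′ to 3′ on the strand of the gene.
TEPSIN, minus strand, chr17:81228727-81228756: tGGACTtgaatccctacgagggatggcagg
CCDC157, plus strand, chr22:30378033-30378062: cttgcggctgtgGGACTgaggtccccatgt
TAF6L, plus strand, chr11:62787257-62787286: gtgggcgctctcGGACTactcgctgtactt
PITX3, minus strand, chr10:102230440-102230469: cacagcctccgcGGACTggggtcattttga
C2CD4D, minus strand, chr1:151838028-151838057: caggggcgcgGGACTtcgcagggatgtgct

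The site in TAF6L, which encodes a component of a histone acetyltransferase complex, lay 69 bases before the gene end, inside a peak of 209 bases with a score of 7.9e-11 that ran to the last annotated base. In PITX3, a homeodomain transcription factor gene, it lay 264 bases before the end in the only listed peak of the gene (score 1e-10). The site of TEPSIN, whose product associates with the AP-4 adaptor complex, was 474 bases from the end (3.2e-18), that of CCDC157 624 bases (1e-16) and that of C2CD4D 225 bases (0.0023). Among windows cut to the length of the shared stretch, between 2.56% (C2CD4D, 31 bases) and 25.3% (CCDC157, 300 bases) held GGACT. These stretches are starts of other genes as well as ends of these, so they do not stand for 3′ ends at large. A match describes letters in the reference and shows no methylated base.

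The 3′ edges of the peaks were not spread evenly over the last 500 bases. The 3′ edge coincided with the last annotated base of the gene in 260 peaks (16.7%, Wilson interval 14.9 to 18.6), 60 of them on plus and 200 on minus. By comparison 68 peaks ended exactly 30 bases before it, 60 ended 60 bases before it and 51 ended 90 bases before it. The first 50 bases held 401 peaks (25.8%), and the next 50 held 191. The median distance was 178 bases, with quartiles of 32 and 329. The share at the last base was 15.0% on plus and 17.3% on minus, and the interval of the difference (-2.25 percentage points, -6.16 to 2.11) includes 0.

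**Figure D1:**
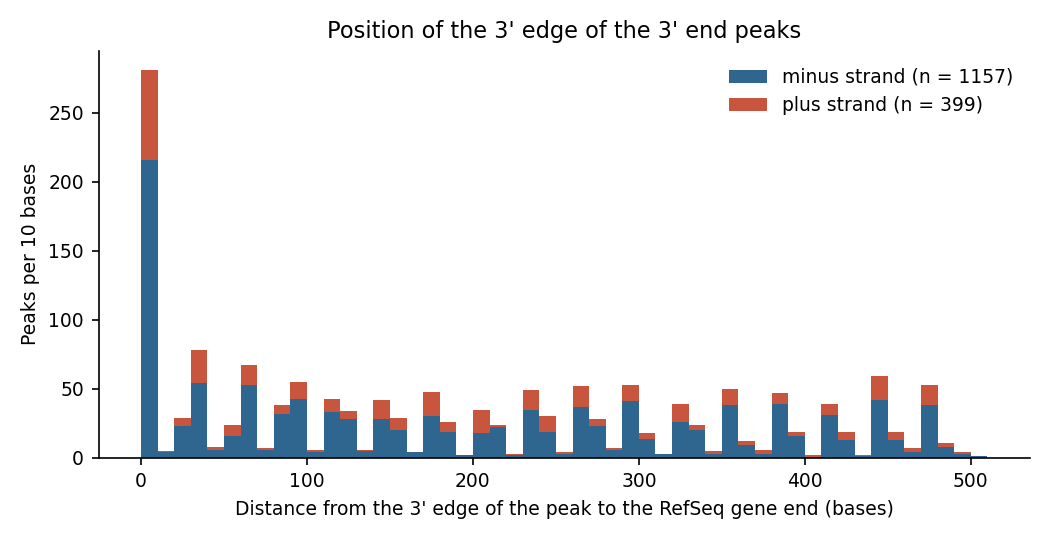
Histogram of the distance in bases (x axis) from the 3′ edge of each 3′ end peak to the annotated gene end, in bins of 10 bases, with the number of peaks on the y axis and the strands stacked. The bin at the gene end stands above the others on both strands, and smaller maxima recur about every 30 bases.

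The maxima follow a step of about 30 bases. In 62.7% of the 3′ end peaks the distance was a multiple of 30 or 1 base short of one, against 15.4% of the other peaks in the last 10% of the span, and without the peaks at distance 0 the share was 55.2%. Peak edges near the gene end thus came in steps, and a modified base cannot be located more finely from them. The same rule mirrored at the 5′ end of genes gave 1024 peaks, of which 31.9% began at the first annotated base, 15.2 percentage points more than the share of 3′ end peaks at the last base (interval of the difference, 3′ minus 5′, -18.6 to -11.8).

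As a set, peaks at the extreme 3′ end were stronger than other peaks late in the gene, which lay in longer genes. At or under the median score of the list (5.2e-08) were 894 of 1556 (57.5%, 55.0 to 59.9), against 50.0% of all peaks. The closest comparison is with 3817 single-block peaks of the last 10% of the span whose 3′ edge lay more than 500 bases from the end, of which 49.4% were at or under it, a difference of 8.04 percentage points (Newcombe interval 5.11 to 10.9). The median score was 7.9e-11 in 3′ end peaks and 7.8e-08 in those others, and the median lengths were 238 and 211 bases. Of the mirrored 5′ end peaks 36.9% were at or under the list median, 20.5 points fewer than at the 3′ end (16.7 to 24.3).

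Much of this difference was carried by peaks that ran to the last base. Of the 260 peaks that ended there 79.2% were at or under the list median, against 53.1% of the 1296 that ended earlier, a difference of 26.1 points (20.2 to 31.4). Their median scores were 1.6e-23 and 6.8e-09. The 1296 peaks that ended 1 to 500 bases before the gene end still exceeded the other peaks of the last 10%, by 3.68 points (0.526 to 6.81). No step was seen at the limit, however. In bins of 50 bases the share was 53.2% at 450 to 499 bases, 47.3% at 500 to 549 and 58.4% at 550 to 599. At 950 to 999 bases it was 61.3%. Of the bins out to 1999 bases the first had the highest share (70.8%), and the second, at 50 to 99 bases, had 43.5%. A score of 0, too small to be stored, was listed for 44 of the 1556 peaks, 6.15% of those at the last base and 2.16% of the rest.

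Longer peaks have smaller scores, and up to 500 bases the order held at equal length. Among minus-strand peaks of 151 to 300 bases, 59 of 67 at the last base were at or under the list median (88.1%), 225 of 377 that ended earlier (59.7%) and 55.5% of the other peaks of the last 10%. On the plus strand the same class gave 21 of 29 (72.4%), 59 of 170 (34.7%) and 30.1%. Even among peaks of at most 150 bases, 20 of 40 minus-strand peaks at the last base were at or under it. Of those that ended earlier 21 of 230 were (9.13%), and 6.71% of the others. On plus the counts were 3 of 20 (15.0%, 5.24 to 36.0) and 3 of 120 (2.50%, 0.854 to 7.09), with overlapping intervals, and 0.270% of the others. From 301 to 500 bases the shares on minus were 51 of 51, 93.4% and 88.6%. On plus they were 7 of 8 (87.5%), 86.8% and 71.1%, so the first of these hardly differed from the next. Above 500 bases all 194 of the 3′ end peaks were at or under the list median, against 90.3% of the others on plus and 97.5% on minus.

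**Figure D2:**
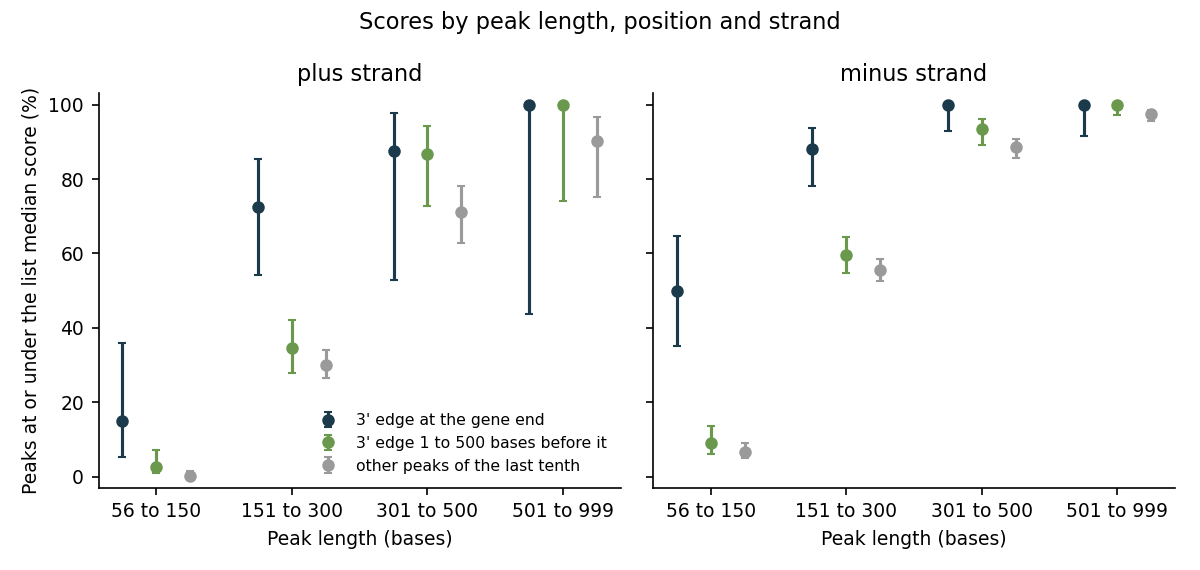
Share of peaks whose score did not exceed the list median (y axis, percent) by peak length in bases (x axis), for the plus strand (left) and the minus strand (right), with bars for the 95% Wilson interval. In peaks of 151 to 300 bases the points for peaks that run to the gene end (dark, 72.4% and 88.1%) stand above those of peaks that end earlier (green) and of other late peaks (grey) on both strands.

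The minus strand held more of these peaks, and stronger ones. Its share of 3′ end peaks was 74.4% (72.1 to 76.5), close to the 72.3% of the whole list and 3.54 points above the other peaks of the last 10% (0.90 to 6.11). Minus-strand peaks outnumbered plus-strand peaks on 22 of the 23 chromosomes with a member. The exception, chromosome 21, had equal numbers. The list as a whole has this imbalance, and its origin was not tested.

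On the minus strand 754 of 1157 3′ end peaks (65.2%) were at or under the list median, where 56.7% of all minus-strand peaks were. On the plus strand 140 of 399 (35.1%) were, where 32.6% of all plus-strand peaks were, so the plus-strand share lay near that of its strand. Against other peaks of the last 10% on the same strand the differences were 6.35 points on minus (3.0 to 9.62) and 8.52 points on plus (3.27 to 13.9). The 3′ end peaks of the plus strand were also shorter, with a median of 180 bases against 241, and 2 of them were listed with a score of 0, against 42 on minus.

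Among the strongest 3′ end peaks on the plus strand, NCAPH2, which encodes a condensin II subunit, and TCEAL4, of the transcription elongation factor A like family, had scores of 0, with peaks of 869 and 541 bases that were the only listed peaks of their genes. They were followed by ITGA3, the integrin alpha 3 chain (1e-308, 660 bases), PSMD7, a subunit of the 19S proteasome particle (1e-244, 268 bases), and EIF4G1, the scaffold of the cap-binding complex (1e-194, 330 bases). On the minus strand the longest peaks with a score of 0 were in the zinc finger gene ZNF768 (990 bases), the lysosomal acid phosphatase gene ACP2 (864 bases), ITGA5, the alpha chain of the fibronectin receptor (808 bases), the splicing helicase gene DDX23 (780 bases) and the Golgi protein gene TMEM115 (772 bases). In ACP2 and TMEM115 the peak ran to the last annotated base, in DDX23 it stopped 60 bases and in ITGA5 299 bases before it. ACP2 and the centriole gene POC1A (570 bases, score of 0) had no other listed peak.

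At the outer limit of the rule, ARHGAP29, a GTPase activator gene, had its peak 500 bases from the end (0.0015), and SYVN1, which encodes a ubiquitin ligase of the endoplasmic reticulum, had its peak 498 bases from the end (1e-212). Just outside, at 502 bases each, lay peaks of UBE2L6, a conjugating enzyme of ISG15 (6.3e-91), and of ZHX3, a zinc finger and homeobox gene (0.00087). Strong and weak peaks thus stood on both sides of the limit.

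Most genes with a 3′ end peak had further peaks. Of the 1483 genes 430 (29.0%) had 1 listed peak, 457 had 2, 458 had 3 or 4 and 138 had 5 or more. Genes chosen through a peak include more genes with many peaks, so the share is compared per peak: 27.6% of 3′ end peaks were the only listed peak of their gene, against 24.7% of all peaks and 22.2% of other peaks in the last 10%, 5.39 points less (2.84 to 8.01). A second peak was listed for 200 of 380 plus-strand genes (52.6%) and for 853 of 1103 minus-strand genes (77.3%). The whole list differs by strand in the same direction. Of all peaks 39.7% on plus and 19.0% on minus were the only one of their gene, and of 3′ end peaks 45.1% and 21.6%. The mean number of listed peaks was 1.90 ± 1.16 (SD over 380 genes) on plus and 2.72 ± 1.83 (SD over 1103 genes) on minus.

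**Figure D3:**
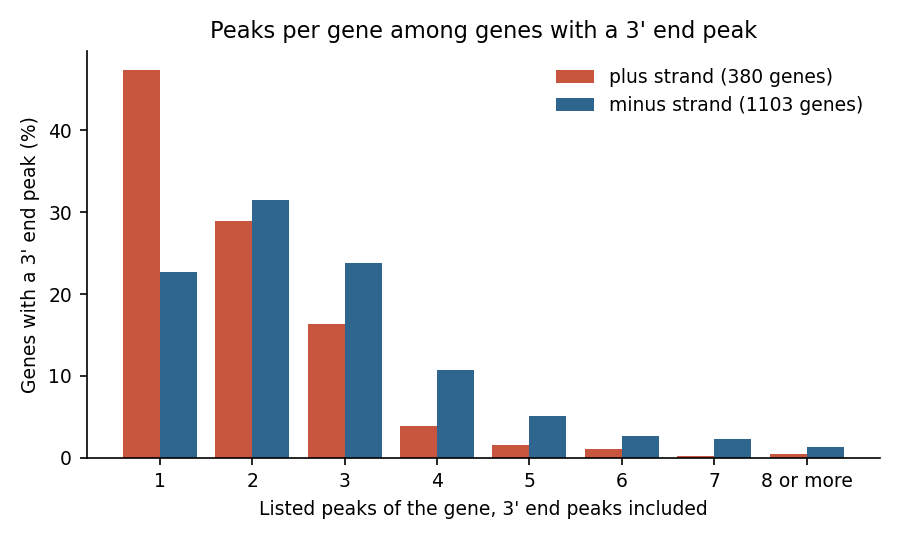
Number of listed peaks per gene (x axis) as a share of genes with a 3′ end peak (y axis, percent) for plus-strand (red, 380 genes) and minus-strand genes (blue, 1103 genes). Genes with 1 peak make up a larger share on plus, where 52.6% have a second peak, than on minus, where 77.3% have one. The whole peak list differs by strand in the same direction.

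The other peaks of these genes lay most often in the last 10% of the span, as did the peaks of other genes. Of the 2172 listed peaks of the 1483 genes that were not 3′ end peaks, 1997 lay inside the span, 31.9% of them in the last 10%, 17.5% in the part before it and 11.6% in the first 10%. Of 12391 peaks inside protein-coding genes with no 3′ end peak, 30.4% lay in the last 10%, 13.9% in the part before it and 14.1% in the first 10%. Where there was a peak on the 5′ side, the gap to it had a median of 1040 bases with quartiles of 298 and 4863 over 1069 peaks, and 36.4% of the gaps were at most 500 bases. Because introns are part of the genomic span, a long gap may be short on the mRNA. The 3′UTR length of these genes was not analysed here.

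The peak at the end was often not the strongest of its gene. In genes with at least 2 peaks, 427 of 1126 3′ end peaks (37.9%, 35.1 to 40.8) were the strongest. Of other peaks in the last 10% 32.9% were, 5.07 points fewer (1.80 to 8.39). Of all peaks 33.2% were, and of mirrored 5′ end peaks 18.1%. By strand the difference from the other peaks of the last 10% was 5.20 points on minus (1.56 to 8.91) and 5.71 on plus (-1.61 to 13.2). Of 3′ end peaks at the last base 51.7% were the strongest, against 35.4% of those that ended earlier, a difference of 16.3 points (8.32 to 24.2). Those that ended earlier exceeded the other peaks of the last 10% by 2.55 points, with an interval that covers both signs (-0.882 to 6.06). The median number of listed peaks of the gene was 2 for 3′ end peaks and 3 for those others. The shares were not compared at equal peak number. In the 683 cases where another peak was stronger, it lay between the first and the last 10% of the span in 343 (50.2%) and was another single-block peak of the last 10% in 158 (23.1%).

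In 72 genes 2 or more peaks met the rule. The peak farther from the gene end was the stronger in 46 of them, the one nearest the end in 22, and 4 were tied. The 72 genes include 10 pairs of peaks that share bases, among them all 4 ties. Such pairs do not mark 2 separate places. FOSL1, which encodes an AP-1 subunit, had a peak of 720 bases that stopped 359 bases before the end (1.3e-99) and another of 211 bases at the last base (5e-46). ITGA5 had a peak of 240 bases at the last base (5e-54) beside its peak with a score of 0. In PSMD7 a peak of 61 bases, 59 bases from the end, had a score of 0.0012, while the other peak had 1e-244. TRIM47, a ubiquitin ligase gene, was the single gene with 3 such peaks. Of these 2 ended at the last base and differed in length by 1 base (60 and 61 bases, both 0.00095). The longer of these 2 stands in a second part of the list, where the order of chromosomes starts again.

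Lists of genes grouped by role are read against all protein-coding genes with a peak, of which 18.1% (1483 of 8176) had a 3′ end peak. Factors of 3′ end processing and polyadenylation had such a peak in 4 of 13 genes with any peak (22 listed). CPSF7, a subunit of cleavage factor I, had one of 360 bases with a score of 1e-262, the strongest of its 3 peaks. RBBP6, a ubiquitin ligase that takes part in cleavage, had its strongest of 5 peaks there (4e-17). The polynucleotide kinase gene CLP1 (3.8e-07) likewise had the stronger of its 2 peaks at the end. In WDR33, whose product binds the poly(A) signal, the peak at the end was weak (0.00058), and the strongest peak of the gene, with a score of 0, lay 5038 bases before the end.

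Of the m6A machinery 1 of 17 genes with a peak (21 listed) had a 3′ end peak. This was YTHDF1, a cytoplasmic reader of m6A, with 211 bases that ran to the last base (4e-13), while a peak of 2 blocks that stopped 1048 bases before the end had a score of 0. The writer METTL3 had none at the gene end, and the writer METTL14 had no listed peak at all. Genes of TGF-beta signalling, SMADs and epithelial to mesenchymal transition had 3 of 23 (30 listed). None of the 3 peaks was at or under the list median, against 57.5% of all 3′ end peaks and 35.1% of those on plus. On plus lay SMAD3, the transcription factor downstream of the TGF-beta receptor (6e-07, 120 bases from the end). SNAI1, a repressor of epithelial genes (0.0013), lay there too, and the cytokine gene IL11 (4.6e-05) lay on minus. SMAD3 had a stronger peak 3900 bases from the end (1.3e-14), whereas those of IL11 and SNAI1 were the only listed peaks of their genes.

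Short-lived regulatory messages had a 3′ end peak in 2 of 23 genes with a peak (30 listed), FOSL1 above and SOCS3, an inhibitor of JAK and STAT signalling. In SOCS3 a peak of 239 bases at the last base (5.9e-09) had upstream of it a peak of 238 bases (6.3e-16), one of 1041 bases (1e-267) and one of 90 bases (0.00048), so that the strongest lay well before the end. Of the reference and housekeeping genes 1 of 5 with a peak (16 listed) had one, the elongation factor gene EEF2, with a score of 0 over 567 bases up to the last base. These lists are small, and their counts describe the members without setting any list apart.

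Genes were also grouped by their symbols, a grouping chosen after the values had been seen. Genes of the mitochondrial ribosome (MRPL and MRPS) had a 3′ end peak in 14 of 42 genes with a peak (33.3%, 21.0 to 48.4). Of all protein-coding genes with a peak 18.1% had one. At or under the list median were 12 of the 14 peaks, against 57.5% of all 3′ end peaks. MRPL14 and MRPL16 had scores of 0 with peaks of 449 and 448 bases, MRPS18A had 1e-166 and MRPL36 had 1e-116, and for 9 of the 14 genes it was the only listed peak. The ZNF zinc finger genes had 70 of 307 (22.8%), the SLC solute carriers 27 of 152 (17.8%), translation initiation factors 2 of 30 and kinesins 1 of 22. The intervals of the smaller groups are wide, and short genes meet the rule more easily: the median span was 19482 bases for 3′ end peaks and 68768 bases for the other peaks of the last 10%, which cannot lie in a span under about 5000 bases.

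Part of the 3′ end peaks overlapped a peak called on the opposite strand. This held for 194 peaks (12.5%, 10.9 to 14.2), against 6.0% of other peaks in the last 10%, a difference of 6.47 points (4.73 to 8.34), and 10.0% of all listed peaks. The plus strand had 86 such overlaps among 399 peaks (21.6%), the minus strand 108 among 1157 (9.33%). Of all listed peaks 17.8% on plus and 7.07% on minus had one, so the list as a whole has this contrast between strands. At the last base the share was 22.3%, against 10.5% of peaks that ended earlier. More 3′ end peaks also touched the span of a second RefSeq gene, 24.5% against 16.1% of the other peaks of the last 10%, a difference of 8.40 points (6.01 to 10.9). Among peaks inside the span of 1 gene, 4.17% overlapped an opposite peak.

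In most of the overlaps that shared at least 90% of the shorter peak, the scores of both strands were alike. There were 191 pairs, of which 147 shared at least 90% of the shorter peak, and in 99 of those (67.3%) the log10 scores lay within 10% of each other. In 17 of the 147 they were identical, 2 of them with both scores listed as 0, where equality cannot be told. The partner was stronger in 53 of the 93 pairs whose 3′ end peak was on plus (57.0%) and in 40 of the 111 on minus (36.0%), where 13 pairs of 3′ end peaks on both strands enter each count. Per the labels a stranded kit was used, and which strand gave rise to the signal of a pair was not tested. The plus-strand peak of NCAPH2 overlapped over 824 bases a peak of SCO2, a copper chaperone gene of cytochrome c oxidase, and both scores were 0.

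**Figure D4:**
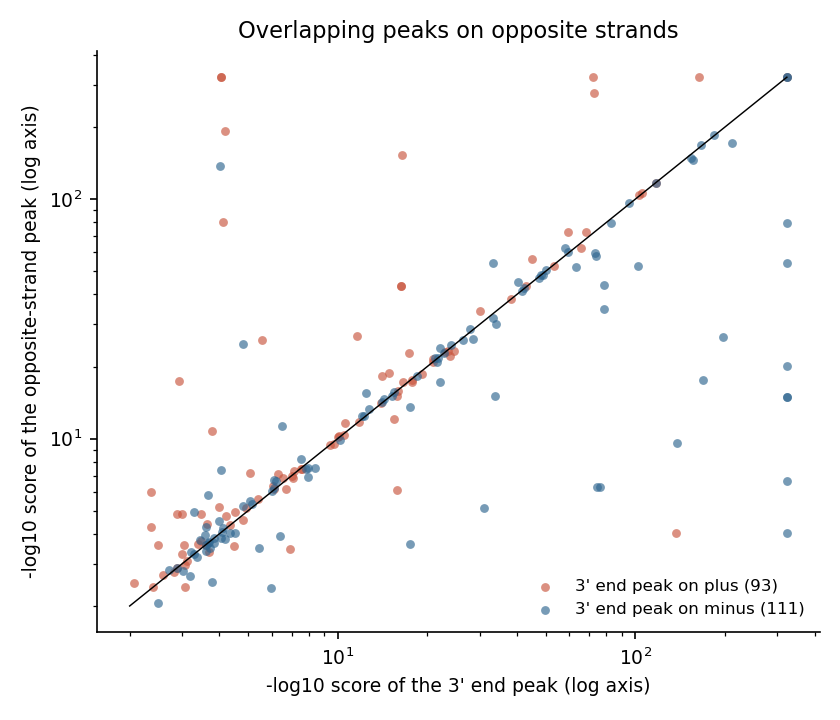
Score of each 3′ end peak (x axis) against that of the overlapping peak on the opposite strand (y axis), both as -log10 on log axes, with scores of 0 set to 323. Points on the diagonal line have equal scores: most of the 191 pairs lie near it (13 are drawn from both sides), with partners far above it mainly among plus-strand peaks (red) and far below it mainly among minus-strand peaks (blue).

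In 13 pairs both peaks were 3′ end peaks of genes that meet tail to tail. VRK2, a kinase gene, and FANCL, the ubiquitin ligase gene of the Fanconi anaemia pathway, shared 398 bases and both had 1e-117. SNX17, a sorting nexin gene, and ZNF513 shared 270 bases with scores of 2.5e-60 and 1e-73. PRPF39 and FKBP3 shared 178 bases, with 1.3e-21 and 3.2e-22. Other pairs were unequal. ARHGAP45, a GTPase activator gene with no other listed peak, had 1e-137 over 781 bases, while the peak of POLR2E, a subunit shared by the RNA polymerases, had 9.3e-05 over 61 bases. The ribosomal protein gene RPL23A (8.9e-05) and TLCD1 (0) shared 12 bases.

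On the same strand, 14 of the 3′ end peaks formed 7 pairs in which different genes shared bases. CHTF8 and DERPC shared 713 bases with scores of 0. MRPS24 and the readthrough gene URGCP-MRPS24, and UBE2V1 with PEDS1-UBE2V1, are further examples in which 1 region was listed under more than 1 gene. Reads there cannot be assigned to a single gene.

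Chromosome 19 held the most 3′ end peaks (190), followed by chromosomes 1 (149) and 17 (135). Of the single-block peaks in the last 10% of the span, 41.8% on chromosome 19 were 3′ end peaks, the highest share, and 14.5% on chromosome 13, the lowest.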

How the data were processed

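RNA of MDA-MB-231 cells was measured by m6A-seq in 2 input and 2 IP libraries, grouped by their titles. The authors used STAR for alignment to a GENCODE annotation and exomePeak at default settings for peak calling, with limits on fold enrichment and FDR. The deposited score was taken to be the p-value from the peak caller. The file header does not name it, and it may be an FDR. A score of 0 was ranked at a −log10 of 323. Depth is unknown.

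Symbols were matched by Ensembl ID (10103 of 10140), and spans were those of the RefSeq gene (GRCh38.p14) with the same symbol on the same chromosome. The strand agreed for all 1198 genes of 3′ end peaks that had one in the promoter table. Filters left 17147 peaks of nuclear protein-coding genes, 15944 inside the span, 13176 of 1 block, 12819 under 1000 bases, 5373 in the last 10% and 1556 near the end. RefSeq and GENCODE may differ in where a gene ends. An exon or UTR map was not used here.

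Shares carry 95% Wilson and differences 95% Newcombe intervals, computed with pandas 2.3.3 and numpy 2.4.6 in Python 3.11.15. The selection and the overlap search were tested on simulated data. Overlap meant at least 1 shared base. No test over samples could be made. Named were, per strand, the 5 strongest peaks and the 3 strongest that were the only peak of their gene, genes with 3 or more peaks, the 2 peaks on either side of the distance limit and every peak of a gene in 5 gene lists. A peak that this rule names is not reported here. Genes named for their pairs, symbol groups, sequences or second peaks were chosen after their values were seen. The members and lists were chosen with earlier results of these data known. Alternatives tried were other distance limits, no length limit, merged peaks, peaks at or under the list median, the first part of the list alone, and peaks without opposite overlaps or inside 1 gene span.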

Additional observations from a re-analysis of the deposited data

How the results depend on the processing

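No paired analysis was possible because each peak has 1 score for all libraries together, and for the same reason no library could be left out. The alternative on UTR length was not run. Of 54 alternative values 42 stayed within the interval of the reported value, or within 1.5 times of a count, and 12 moved. The number of 3′ end peaks was 974 with a limit of 250 bases, 2416 with 1000 bases and 894 at or under the list median, each by construction. The minus-strand share (74.4%) became 84.3% at or under the list median, 77.0% without opposite overlaps and 76.9% inside the span of 1 gene. The share of genes with another peak (71.0%) became 57.7% at or under the list median, where fewer peaks are counted, and 68.0% inside 1 gene span. Peaks strongest in their gene (37.9%) were 41.5% at or under the list median. Opposite overlaps (12.5%) fell to 4.17% inside 1 gene span. Of the 54 values 8 used alternatives chosen after seeing the data. Among these 8, the difference from the other peaks of the last 10% at the list median (8.04 points) was 3.68 points without peaks at the last base, and the difference between plus and minus (-30.1 points) was -35.7 points inside 1 gene span. The cause of the moves not set by construction was not tested.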

Other observations

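A further 108 single-block peaks on 106 protein-coding genes ended past the annotated RefSeq gene end by at most 500 bases and so were not counted as 3′ end peaks. The end of the gene lay inside 100 of them, and 88 passed it by at most 30 bases, with a median of 6 bases. Of these peaks 87 were on the minus strand, and 78 (72.2%) were at or under the list median score, a share between those of 3′ end peaks that ended at the last base and earlier.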
